A study of Mus musculus with 12 samples.

Results

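Antibody constant region oligos are array probes whose sequence encodes a stretch of the invariant part of a mouse antibody chain. Each oligo was translated in its 3 forward frames. The translations were searched for 18 short protein patterns of the kappa, lambda, mu, gamma and alpha constant regions. The match used sequence alone, but earlier results of these data were known when the members were chosen. The rule found 5 of 35852 oligos: 2 for kappa, 1 for lambda and 2 for gamma. No oligo carried a mu or an alpha pattern, so no values for IgM and IgA transcripts are given here. An oligo of either that lacks these patterns would not have been found. Only 3 of the 18 patterns had a match, and the reverse strands gave 0.

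RNA from whole spleen was hybridised on 12 arrays, 1 sample per array. The 564 Igi mice carry knock-in antibody genes on a C57BL/6 background and gave 3 samples at an age of 4 months, 3 aged 8 months and 4 aged 12 months, and the controls were 2 samples of C57BL/6 spleen aged 4 months. All were labelled female. The sample annotation gives the knock-in as 564+/-, whereas the treatment text names homozygotes, 564+/+, as the animals studied, and it adds that part of that colony drank water with ampicillin, metronidazole, neomycin and vancomycin without saying which samples that concerns. Controls were available at 4 months alone, so the comparisons at 8 and 12 months mix genotype with age, and all 3 comparisons share the same 2 control arrays. Whether the samples of a group came from different animals is not stated, so the tests weigh differences against a spread between samples that may be technical.

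Antibodies are built from paired heavy and light chains. The variable end of each chain binds antigen, and the constant region sets the class: kappa or lambda for the light chain, and mu, delta, gamma, epsilon or alpha for the heavy chain. B cells first make mu and delta heavy chains and can switch to gamma, epsilon or alpha, which gives IgG, IgE or IgA. Plasma cells hold far more antibody mRNA than resting B cells do, and the spleen contains both. A variable region knocked into an antibody locus is spliced to the constant exons of that locus. In RNA from whole spleen, a change in the number of antibody-producing cells and a change in RNA per cell cannot be told apart.

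The kappa oligos are shown first because they gave the called differences and because they share most of their sequence. The capitals mark the 42 bases, positions 19 to 60 from the 5′ end, that are identical in both. The first 18 bases differ at 12 positions, so 48 of 60 bases are identical (80.0%). These 18 bases lie before the matched pattern, which spans bases 21 to 41, and the rule does not show that they belong to the constant region. The oligos therefore need not match the same kappa transcripts over their full length.
M400009426: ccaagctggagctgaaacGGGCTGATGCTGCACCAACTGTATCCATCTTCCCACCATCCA
M400010430: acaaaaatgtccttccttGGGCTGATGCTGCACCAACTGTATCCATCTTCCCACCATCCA
One oligo that held none of the patterns, M400007350, begins with the last 20 bases of both and runs on from there, so the 3 oligos together cover 82 bases from the start of the common run. It was the only oligo outside the 5 that had a run of at least 20 bases in common with any of them, and it is given below as a neighbour and not as a member. Its capitals mark the 20 common bases.
M400007350: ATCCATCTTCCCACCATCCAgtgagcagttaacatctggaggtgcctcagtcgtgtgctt

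The gamma oligos are shown to make clear that they read different, related sequences. The lambda oligo is shown as the only member found for the other light chain. The capitals mark the bases that encode the matched pattern. The gamma oligos match at 43 of 60 positions (71.7%), with no common run longer than 8 bases, whereas the kappa oligos overlap heavily and are not independent measurements of kappa.
M200003304: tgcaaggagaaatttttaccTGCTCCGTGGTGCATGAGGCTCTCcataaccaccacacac
M200012531: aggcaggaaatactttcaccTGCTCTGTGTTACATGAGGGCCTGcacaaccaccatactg
M400012857: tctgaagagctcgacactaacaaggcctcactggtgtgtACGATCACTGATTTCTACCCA
All 35852 oligos are listed as unmapped in the files, which pair no oligo with a gene or a position in the genome. No coordinate, gene symbol or gamma subclass is therefore given for any of them, and the spleen label could not be checked against marker genes.

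On every array Cy3 carried the spleen RNA and Cy5 a universal reference RNA, so dyes were never swapped. The share of oligos well above background in Cy3 was 69.4% to 75.9% on 11 arrays and 91.2% on 564 Igi 4 months replicate 1. The arrays lie on 3 slides. Slide 1 holds no control array, and slides 2 and 3 hold 1 each. Both channels of all 5 members were well above background on each of the 12 arrays, no member spot was saturated, and all 5 passed the filter on dim oligos. A level below is the log2 ratio of sample over reference after normalization, and a difference between groups is a log2 fold change with its standard error (SE). A call is an adjusted p under 0.05 from limma, adjusted by Benjamini-Hochberg over all 26279 oligos tested.

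The mean log2 ratio of both kappa oligos was higher in 564 Igi spleen than in C57BL/6 spleen at every age. Only at 12 months did the difference pass the test. On the 2 control arrays, M400009426 had a log2 ratio of -0.29 and -0.29. On the 564 Igi arrays it had 1.16, 1.04 and 1.70 at 4 months, 2.04, 0.38 and 1.71 at 8 months, and 1.58, 1.69, 2.27 and 2.39 at 12 months. All 10 knock-in arrays lay above both controls, as they did for 4.43% of all oligos, and 564 Igi 8 months replicate 2 was the lowest of them. The group means were 1.30 ± 0.35 (SD, n = 3), 1.38 ± 0.88 (SD, n = 3) and 1.98 ± 0.41 (SD, n = 4).

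The other kappa oligo followed the same order of arrays at its extremes. M400010430 had -0.56 and -0.49 on the control arrays. On the 564 Igi arrays it had 0.67, 0.43 and 1.06 at 4 months, 1.44, -0.25 and 1.22 at 8 months, and 1.02, 1.14, 1.67 and 1.70 at 12 months. Again no knock-in array overlapped the controls, and 8 months replicate 2 was again the lowest. The neighbour M400007350, which reads the adjoining stretch, had -0.36 and -0.61 in controls against 0.43, 0.23 and 0.85 at 4 months, 1.34, -0.35 and 0.96 at 8 months, and 1.01, 0.97, 1.55 and 1.78 at 12 months. Its margin at the low end was the narrowest, -0.35 on 8 months replicate 2 against -0.36 on C57BL/6 replicate 1.

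At 12 months both kappa oligos rose relative to the C57BL/6 arrays. M400009426 was 4.83-fold higher, a log2 fold change of 2.27 (SE 0.39, 95% confidence interval 1.42 to 3.12, limma adjusted p = 0.0164). M400010430 was 3.74-fold higher, at 1.90 (SE 0.39, 95% confidence interval 1.06 to 2.75, limma adjusted p = 0.0446). These were 2 of the 5 members, against 0.320% of all oligos called higher and 0.906% called in either direction at that age. The neighbour M400007350 gave 1.81 (SE 0.39) with a limma adjusted p of 0.0582 and was not called. The call for M400010430 held in 8 of 26 alternative settings and that for M400009426 in 23 of 26. Without C57BL/6 replicate 1 the adjusted p was 0.0976 for M400009426 and 0.175 for M400010430, and without C57BL/6 replicate 2 it was 0.148 and 0.251. With any one of the 4-month or 12-month 564 Igi arrays left out, M400010430 was not called, with adjusted p from 0.0589 to 0.108.

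At 4 months, where knock-in and control had the same age, the kappa differences were smaller and none was called. M400009426 gave 1.59 (SE 0.41, 95% confidence interval 0.69 to 2.49, limma adjusted p = 0.173) and M400010430 gave 1.24 (SE 0.41, 95% confidence interval 0.35 to 2.14, limma adjusted p = 0.26). In a fit to the 5 arrays of these groups alone, both were called, at adjusted p of 0.0198 and 0.0428. Both were also called without 564 Igi 8 months replicate 2, at 0.026 and 0.0499. Of the 5 members limma called 0 at 4 months, against 0.407% of all oligos called in either direction and 0.0685% called higher. At an unadjusted p under 0.05 there were 3 of 5 members and 12.6% of all oligos.

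At 8 months the kappa log2 fold changes were 1.67 (SE 0.41, limma adjusted p = 0.117) for M400009426 and 1.33 (SE 0.41, limma adjusted p = 0.195) for M400010430. Without 8 months replicate 2 they were 2.16 and 1.85, with adjusted p of 0.00438 and 0.00527, so this 1 array decided the call. The count over all oligos rose as well, from 164 called in the main fit to 577, so the gain was not particular to kappa. In the main fit limma called 0 of the 5 members at this age, against 0.624% of all oligos called and 0.129% called higher. At an unadjusted p under 0.05 there were 3 of 5 members and 14.0% of all oligos. Within slide 2, where 8 months replicate 2 lies, the difference from the control array was 0.67 for M400009426 and 0.31 for M400010430. Within slide 3 it was 2.00 and 1.70. The 12-month differences were 1.98 and 1.70 within slide 2, and 2.62 and 2.17 within slide 3, for the same oligos. The single 4-month array of slide 2 gave 1.99 and 1.62, so every within-slide difference from control was above 0, over 1 or 2 knock-in arrays and 1 control each. With the slide as a block, the 12-month call for M400010430 ended (1.85, adjusted p = 0.0578).

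The groups failed to overlap, with the knock-in higher, for 3 of 5 members in each comparison with C57BL/6. At 4 and 12 months these were both kappa oligos and M200003304, and at 8 months both kappa oligos and lambda. Over all oligos the same held for 18.1% at 4 months, 13.6% at 8 months and 10.2% at 12 months. A stricter count takes all 10 knock-in arrays together, ages mixed. Both kappa oligos, and no other member, had every one above both controls, which was true of 4.43% of all oligos. In that comparison, added after the values were known, M400009426 differed by 1.89 and M400010430 by 1.53. The exact permutation test over arrays (two-sided, 66 arrangements) gave p = 0.0152 for each, the smallest it allows. After Benjamini-Hochberg adjustment over 6 oligos, the members and the neighbour M400007350, it was 0.0303. Both kappa oligos and that neighbour share sequence, so the 6 are not independent tests. The p follows from the lack of overlap between arrays, which held for 4.43% of all oligos, so it adds no separate support. With C57BL/6 replicate 1 or 2 left out, the difference of M400009426 was 1.89 and 1.88. The exact permutation p of both oligos was then 0.0909, the smallest that 1 control array allows, so that test could not pass 0.05.

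The difference between strains was larger in M400009426 than in the other kappa oligo in the ratio to the reference, a pattern tested only after it had been seen. The log2 ratio of M400009426 minus that of M400010430, taken within each array, was 0.19 and 0.27 on the control arrays. On the 10 knock-in arrays it ran from 0.49 to 0.70 with a median of 0.59. No knock-in array overlapped the controls, and the difference of 0.35 had an exact permutation p of 0.0152, or 0.0227 adjusted over the 3 pairs compared. That p is the smallest the arrays allow and follows from the lack of overlap, so it adds no separate support. M400009426 minus the neighbour M400007350 was 0.07 and 0.32 in controls and 0.57 to 0.86 in the knock-in, a difference of 0.52 with the same exact permutation p and adjusted p. M400010430 minus M400007350 differed by 0.17, with 5 of 10 knock-in arrays above both controls (exact permutation p = 0.121, also after adjustment). These oligos have different bases outside the runs they have in common: M400009426 has 55.0% G and C, M400010430 48.3% and M400007350 51.7%. Whether those bases bear on the larger strain difference of M400009426 was not tested. From the Cy3 signal alone after quantile normalization, the strain difference in M400009426 minus M400010430 was 0.28, with an exact permutation p of 0.0758. Without C57BL/6 replicate 1 or 2 it was 0.39 and 0.31 in the ratio.

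The lambda constant region oligo, measured as the ratio to the reference, passed the test in no comparison. M400012857 had log2 ratios of 3.49 and 3.61 in controls, 3.55, 3.62 and 3.83 at 4 months, 3.67, 3.77 and 3.79 at 8 months, and 3.27, 3.91, 3.54 and 4.12 at 12 months. The 4-month and 12-month groups overlapped the controls, and the 8-month arrays lay just above them. Its log2 fold changes against C57BL/6 were 0.12 (SE 0.20), 0.19 (SE 0.20) and 0.16 (SE 0.19) at 4, 8 and 12 months, with limma adjusted p from 0.736 to 0.852. The 95% confidence interval at 12 months was -0.26 to 0.58. The residual SD of this oligo was 0.25, against 0.53 for each kappa oligo and a median of 0.16 over all oligos tested.

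Gamma constant region signal, from the heavy chain of IgG, was read by 2 oligos, and neither passed the test in the ratio to the reference. Whether they cover all IgG transcripts was not tested. M200003304 had log2 ratios of 3.82 and 4.54 in controls. In the knock-in it had 4.89, 5.03 and 5.25 at 4 months, 4.35, 5.48 and 5.61 at 8 months, and 4.76, 5.51, 5.06 and 5.81 at 12 months. One knock-in array, 8 months replicate 1, lay below the higher control, and 9 of 10 lay above both. The log2 fold changes were 0.88 (SE 0.38), 0.97 (SE 0.38) and 1.11 (SE 0.36) at 4, 8 and 12 months, with limma adjusted p of 0.373, 0.288 and 0.231. The interval at 12 months was 0.32 to 1.89, and at none of the ages was it called. All 10 knock-in arrays against the 2 controls differed by 1.00 (exact permutation p = 0.0303, adjusted over 6 oligos 0.0455). This comparison mixes ages and was added after the values were known. The p reflects that 9 of 10 arrays lay above both controls, so it adds no separate support. The share of all oligos with such an order is not given. Its adjustment covers 6 oligos, not all, and they include both kappa oligos and the neighbour M400007350, which are not independent. Without C57BL/6 replicate 1 the difference over all knock-in arrays was 0.64, and with the scanner software's own ratio 0.56 (exact permutation p = 0.197).

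M200012531 had the widest spread of the 5 members among arrays of a group. Its controls had 2.46 and 3.22, and the knock-in arrays had 2.38, 2.40 and 3.38 at 4 months, 4.55, 2.73 and 4.25 at 8 months, and 3.15, 3.45, 3.45 and 4.71 at 12 months. Every knock-in group overlapped the controls. The log2 fold changes were -0.11 (SE 0.56), 1.01 (SE 0.56) and 0.85 (SE 0.53), with limma adjusted p of 0.956, 0.453 and 0.556. The sign at 4 months turned under several alternatives. Its residual SD of 0.73 was higher than that of 99.7% of the oligos tested, so a difference of 1 log2 unit was not detectable with these groups.

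The ratio to the reference and the spleen signal alone gave different calls for gamma. The Cy3 signal of M200003304 was 2650 and 3294 on the control arrays. It was 10268, 14190 and 18581 at 4 months, 31625, 14234 and 27818 at 8 months, and 19780, 19494, 19959 and 31765 at 12 months. In this signal, before normalization, every knock-in array lay above both controls. The share of all oligos for which that held in Cy3 is not given, and in the ratio it was 4.43%. Fitted on Cy3 alone after quantile normalization, M200003304 was 7.02-fold higher at 8 months (log2 fold change 2.81, SE 0.42, limma adjusted p = 0.00956) and 8.42-fold higher at 12 months (3.07, SE 0.40, limma adjusted p = 0.00249). At 4 months it was 4.26-fold higher (2.09, SE 0.42) with a limma adjusted p of 0.089. By this measure 0.0837% of all oligos were called higher at 4 months, 0.171% at 8 months and 0.438% at 12 months.

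The Cy5 signal, which comes from the same reference RNA on every array, moved with the Cy3 signal at this oligo. For M200003304 it was 189 and 208 on the control arrays, 282, 353 and 571 at 4 months, 1556, 391 and 830 at 8 months, and 713, 569, 1213 and 1464 at 12 months. Fitted alone, Cy5 was higher in the knock-in by 1.15 (SE 0.55), 1.96 (SE 0.55) and 2.01 (SE 0.52) on the log2 scale at 4, 8 and 12 months, with limma adjusted p of 0.439, 0.48 and 0.606. Over all oligos 0.247%, 0.225% and 0.202% moved past 2-fold in Cy5 in these comparisons. The log2 ratio of M200003304 subtracts this Cy5 difference and the Cy3 fit does not. The cause of the Cy5 difference was not tested.

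The other members are given in the same way. The lambda oligo M400012857 differed at 12 months by 1.39 in Cy3 alone (SE 0.54, limma adjusted p = 0.344) and by 1.28 in Cy5 alone (SE 0.46). For M400009426 the 12-month difference was 1.85 in Cy3 alone (SE 0.29, limma adjusted p = 0.00825) and -0.09 in Cy5 alone (SE 0.09). For M400010430 it was 1.64 (SE 0.32, limma adjusted p = 0.0344) and -0.14 (SE 0.08). With Cy3 centred on the array median in place of quantile normalization, M400010430 was not called (1.43, limma adjusted p = 0.0645). M200012531 gave 1.81 in Cy3 (SE 1.13) and 0.96 in Cy5 (SE 0.76), neither called. At 12 months the Cy5 differences of both kappa oligos were thus close to 0, whereas those of the gamma and lambda oligos were 0.96 or more without passing the test. At the other ages this did not hold throughout: the Cy5 difference of lambda was 0.18 at 8 months, and that of M200012531 was 0.33 at 4 months.

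No member passed the test for a difference between ages of the knock-in. Limma called 0 of 5 members in each pair of ages and in the F test over all 3 ages. At an unadjusted p under 0.05 there was 1 member between 8 and 4 months, M200012531, and 0 in each of the other comparisons of age. The shares of all oligos at that threshold were 3.14% between 8 and 4 months, 7.64% between 12 and 4 months, 4.22% between 12 and 8 months and 4.89% in the F test. Over all oligos 0% were called between 8 and 4 months and between 12 and 8 months, and 0.00381% between 12 and 4 months and in the F test. Between 12 and 4 months the kappa log2 fold changes were 0.68 (95% confidence interval -0.07 to 1.43, limma adjusted p = 0.663) for M400009426 and 0.66 (-0.09 to 1.41, limma adjusted p = 0.672) for M400010430. The upper limits correspond to 2.70-fold and 2.65-fold, so increases of that size lie inside the intervals.

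Differences between ages were not the same from slide to slide. Between 8 and 4 months M400009426 differed by 0.94 within slide 1 and by -1.32 within slide 2. M200012531 differed by 2.16 within slide 1 and by -0.65 within slide 2, against 1.12 over all arrays (95% confidence interval 0.03 to 2.21, unadjusted p = 0.0444, limma adjusted p = 1.00). These within-slide values rest on 1 or 2 arrays a group. For lambda the largest of the 3 differences between ages was 0.08 (8 against 4 months), and for M200003304 it was 0.23 (12 against 4 months), with F test adjusted p of 0.988 and 0.974 in limma. From Cy3 alone, the 12-month against 4-month difference of M200003304 was 0.98 (95% confidence interval 0.20 to 1.76, limma adjusted p = 0.641) after quantile normalization and 0.89 (0.16 to 1.62, limma adjusted p = 0.834) after median centring, and neither was called.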

How the data were processed

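Per the file headers, the scanner images were read by Agilent Feature Extraction 11.5.1.1. It subtracted background and normalized dyes by lowess (smooth factor 0.25). The deposited intensity columns hold each spot's mean signal and median local background, unnormalized. The deposited log10 ratio (reference over sample, sign turned here) and the series table, equal to it within 0.005 on each array with column medians of 0 except 0.00196 for 564 Igi 4 months replicate 1, served as alternatives, and other deposited columns are flags. Intensities were background-corrected by normexp (offset 50) and loess-normalized in limma 3.58.1 (R 4.3.3), with control spots at weight 0. From 17 to 80 spots per array, flagged as uneven in the spot or in its background, were left out, a choice made after seeing the data. The uneven backgrounds distorted the normexp fit on 3 arrays, so these spots were given the array's median background before it. Of 35852 oligos, 26290 were well above background in Cy3 on all arrays of at least 1 group and 26279 were tested, on log2 ratios, with 1 coefficient per group and all 12 arrays. Sequences were translated with Biopython 1.88.

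Members and lists were chosen with earlier results of these data known. Every member is accounted for, and per-array values were planned for called members and the brightest of each isotype. Lists of B cell, plasma cell, T cell, myeloid, erythroid, NK cell, recombination and antibody receptor genes were not used here, because no table at hand pairs oligos with genes. The exact permutation tests, the median-centred Cy3 fit and the Cy5 fit were added after seeing the data.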

Additional observations from a re-analysis of the deposited data

How the results depend on the processing

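Each comparison was repeated under 26 alternatives. At 4 months against C57BL/6 0 members were called, and 2 with only the arrays compared (leaving out single arrays: 0 to 2). At 8 months 0 were called, and 1, M200003304, with the sample channel alone under quantile scaling or median centring, the latter added after seeing the data (single arrays out: 0 to 2). At 12 months 2 were called. That count was 3 with the quantile-scaled sample channel, which added M200003304, and 2 with its median centring, where M200003304 took the place of M400010430. It was 1 with uneven-background spots kept, the scanner's ratio, the deposited table, no filter on dim oligos, the slide as a block, the replicate block or eBayes with trend and robust, and 0 with median centring in place of loess, where M400009426 gave 1.89 (adjusted p = 0.0542) and M400010430 1.56 (0.187) (single arrays out: 0 to 2). In comparisons between ages it was 0 under all 26 (single arrays out: 0 to 0). Over all oligos, the alternatives called 54 to 206 at 4 months, 69 to 577 at 8 months and 110 to 309 at 12 months against C57BL/6.

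Under the replicate block M400010430 at 12 months against C57BL/6 was 1.61 (adjusted p = 0.103). Replicate numbers did not pair the samples: residuals of same-numbered arrays correlated at -0.23 to 0.29 (15 pairs, median -0.04), against a median of 0 for 38 other pairs. Arrays of the same slide had a median of 0.13, and others -0.09.

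All values whose sign turned were uncalled. For M200012531 at 4 months against C57BL/6 it was 0.18 with median centring, 0.46 and 0.39 with the sample channel alone (quantile, median centring) and 0.22 with the slide block. Between 12 and 8 months it was 0.38 with uneven spots kept, and over all knock-in arrays -0.01 with the deposited table. For M400012857 at 12 months against C57BL/6 it was -0.09 with median centring and -0.01 with the replicate block. Between 8 and 4 months it was -0.04 with median centring and the slide block, and -0.94 and -0.81 with the sample channel alone. Between 12 and 4 months it was -0.03 with the scanner's ratio, -0.04 with the deposited table, -0.51 with median centring, -0.02 with the median-centred sample channel, -0.11 with the slide block and -0.10 with the replicate block. Between 12 and 8 months it was 0.07 with uneven spots kept, and 1.07 and 0.79 with the sample channel alone. For M200003304 between 8 and 4 months it was -0.20 with the scanner's ratio, -0.21 with the deposited table and the slide block, and -0.18 with median centring. Between 12 and 4 months it was -0.34 with median centring and -0.17 with the slide block, and between 12 and 8 months -0.16 with median centring and -0.03 with the replicate block. Between 8 and 4 months, M400009426 gave -0.12, M400010430 -0.11 and M400007350 -0.04 with median centring, and the first 2 gave -0.05 and -0.04 with the slide block. M400010430 minus M400007350 was -0.02 with the scanner's ratio and the deposited table. With single arrays left out, signs also turned for M200012531 at 4 months against C57BL/6 (-0.49 to 0.27) and between 12 and 8 months (-0.71 to 0.20). They turned between 8 and 4 months for M400009426 (-0.26 to 0.57), M400010430 (-0.24 to 0.61), M400007350 (-0.20 to 0.65) and M200003304 (-0.15 to 0.48), between 12 and 4 months for M400012857 (-0.10 to 0.19), and between 12 and 8 months for M400012857 (-0.17 to 0.11) and M200003304 (-0.26 to 0.37). The causes were not tested. With 2 control arrays and 1 spot per oligo, the number of arrays limits the precision.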

Other observations

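The kappa oligos were among the brightest on the arrays. By mean Cy3 signal M400009426 ranked 14, the neighbour M400007350 ranked 21 and M400010430 ranked 89 of 35852 oligos, and M400012857, M200003304 and M200012531 ranked 407, 725 and 4771. Cy3 of M400009426 ran from 42008 to 183640, with Cy5 from 61581 to 115350, whereas Cy3 of M200012531 ran from 489 to 16003, a 32.7-fold range, with Cy5 from 78.8 to 677.

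As a description over 12 arrays, which share their hybridisation and slides, Pearson's r was taken between the log2 Cy3 and Cy5 signals of an oligo. Each channel of each array was first centred on its median. The r was 0.97 for M400012857, 0.91 for M200003304 and 0.97 for M200012531. It was -0.17 for M400009426 and -0.14 for M400010430. The median r was 0.52 over all oligos tested. Among the 246 of them in the top 10% of Cy3 signal with a mean log2 ratio above 3, the median was 0.72 and the quartiles were 0.55 and 0.83. M400012857 and M200003304 meet both conditions and lay above the upper quartile. M200012531, brighter in Cy3 than 86.7% of oligos, lies outside that set.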
